A study of Mus musculus with 6 samples.

Results

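A set of 50 interferon-stimulated genes was followed in muscle stem cells (MuSCs), the PAX7-positive stem cells that regenerate skeletal muscle. The genes were chosen by symbol, with earlier results of these libraries in view. All 50 were among the 22706 genes of the table, and 47 of them had a mean of at least 5 over the 6 libraries, which was the condition for a test. Oas1a, Oas3 and Oasl1 fell below this mean and are given by their values only.

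RNA-seq was done on freshly sorted MuSCs of 3 groups with 2 libraries each. Control mice were wild type, mdx mice carry the dystrophin mutation Dmdmdx and model Duchenne muscular dystrophy, and mice labelled Sirt6mKO/mdx carry the mdx mutation together with a floxed Sirt6 gene cut by a Cre recombinase expressed from the Pax7 locus. SIRT6 is a nuclear deacetylase of histones. The Cre is constitutive, so recombination reaches PAX7-expressing cells and their descendants, and myofibres among them. The strain label is C57BL/6 in all 3 groups, while the methods give C57BL/10ScSn-Dmdmdx/J as the source of the mdx mice, and the labels give neither age nor sex. The study states young adult male mice. The labels do not say whether the 2 libraries of a group came from separate mice, while the methods of the study call them biological replicates. The p-values measure the spread between these libraries.

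Interferons are cytokines released by cells that sense viral or displaced nucleic acids. Type I interferons bind the receptor IFNAR1/IFNAR2, whose kinases JAK1 and TYK2 start a signal that reaches the nucleus through a complex with STAT2 and IRF9, which binds the interferon-stimulated response element (ISRE) of target promoters. Interferon gamma uses its own receptor and acts through the gamma-activated site (GAS). The targets include sensors of foreign RNA, enzymes that degrade RNA or halt its translation, ISG15 and its enzymes, and large GTPases that attack the membranes around intracellular microbes. Part of this program is kept at a low level in resting cells.

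Several properties of the libraries bear on the members. Approximate depth ranged from 4397632 to 9744420 reads. All 12 MuSC markers were tested, with a median between 2183 and 2961 per library and Pax7 between 2167 and 3236 (normalised read counts, in which each library is divided by its size factor). One of them, Sdc4, was called in every comparison, with values of 7692 and 6224 (control), 1100 and 1049 (mdx), and 2753 and 2822 (labelled Sirt6mKO/mdx), and Heyl and Notch3 were called lower in the last group than in control. The other 9 were not called. Of 8 myofibre markers, 4 were called lower in mdx than in control and 3 higher in the Sirt6mKO/mdx-labelled libraries than in mdx, where all 8 had log2 fold changes above 0. Of 10 fibro-adipogenic markers 2 were called higher in mdx, and Col1a1 was called lower in the Sirt6mKO/mdx-labelled libraries than in mdx. The part of these markers in the results was not tested.

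The table held 16 macrophage and leukocyte markers, of which 9 were tested, and the summed values of the 16 were 131 and 162 (control), 159 and 137 (mdx), and 238 and 260 (labelled Sirt6mKO/mdx). Cd68 made up more than any other marker of the sum in control, with 86 and 88, against 30 and 26 in mdx and 107 and 56 in the last group. The median of the 16 was 0 and 1.5 (control), 6 and 5 (mdx), and 6 and 10 (labelled Sirt6mKO/mdx). Of the 9 tested, 6 had a log2 fold change above 0 in mdx against control, with a median of 1.44, and 8 in the Sirt6mKO/mdx-labelled libraries against mdx, with a median of 0.54. C1qa, C1qc and Laptm5 were at 0 in both control libraries and between 2 and 17 in the other 4, and the part of such cells in the results was not tested. Ptprc, which encodes CD45, was at 0 in both control libraries and between 3 and 19 in the others. Lyz2 was the leukocyte marker called higher in mdx than in control, and Cd68 was the one called lower. Of 6 plasmacytoid and dendritic markers 2 were tested, Zbtb46 (29 to 86) and Ccr9 (2 to 16), and neither was called. Of the others Flt3 was at 0 in all 6 libraries, Siglech, a marker of plasmacytoid dendritic cells, between 0 and 1, Clec9a between 0 and 2, and Itgax at 0 in both control libraries and between 1 and 7 in the other 4. Xist stood at 16772 and 12950 in control and between 7 and 34 in the other 4, and the Y-linked Ddx3y was at 3 and 8 against 1024 to 1767. The control libraries go against the male sex that the study states. Comparisons with control therefore cannot be told apart from this sex-linked difference. Sirt6 had values of 41 and 32 (control), 33 and 40 (mdx), and 37 and 30 (labelled Sirt6mKO/mdx), and was not called. The ratio of approximate reads per depth between the labelled libraries and mdx was 0.942, with an exact 95% interval of 0.636 to 1.37 for counting error only. A value per gene, which includes exons outside the floxed ones, thus gives no check of the label at this depth.

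A set of 24 immediate early and dissociation response genes moved with the groups. Its summed values were 184319 and 209366 (control), 25512 and 29006 (mdx), and 145863 and 138827 (labelled Sirt6mKO/mdx). Of these 24 genes 23 were called lower in mdx than in control, and 23 were called higher in the Sirt6mKO/mdx-labelled libraries than in mdx. Its part in the results on interferon-stimulated genes was not tested.

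Many members share the interferon motif that their group is known for, a feature the choice by symbol did not use. Promoter windows of RefSeq (GRCm38.p6), from 250 bases before to 50 after a start site, were found for 40 of the 50 members, in 49 windows. The ISRE was searched as GAAANNGAAA on both strands, overlapping matches included, and was present in 21 of the 40 members (52.5%). It was present in 1079 of the 27025 genes with a window (3.99%). The GAS, searched as the palindrome TTCNNNGAA, was present in 14 of the 40 members (35%) against 9.55% of all genes. Interferon-stimulated genes are in part known by such promoters, and a match is a run of letters, not a bound site.

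The promoters of 7 members are shown for the 250 bases before the start site, in the direction of the gene, with ISRE and GAS matches in capitals. Ifit1, Ifit3 and Isg15 show the classical close pairs or runs of ISRE matches, Gbp7 has an ISRE beside 2 GAS matches, Irgm1 has overlapping ISRE matches next to its start, and Irf1 and Cxcl10 are the members whose values moved the opposite way to the other called members in mdx.
Ifit1 (chr19:34640639-34640888, + strand): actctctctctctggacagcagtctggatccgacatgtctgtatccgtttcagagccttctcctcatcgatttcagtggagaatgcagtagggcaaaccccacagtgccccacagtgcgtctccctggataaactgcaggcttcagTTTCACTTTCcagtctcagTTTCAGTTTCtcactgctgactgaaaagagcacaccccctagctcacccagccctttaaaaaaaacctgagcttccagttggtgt
Ifit3 (chr19:34583279-34583528, + strand): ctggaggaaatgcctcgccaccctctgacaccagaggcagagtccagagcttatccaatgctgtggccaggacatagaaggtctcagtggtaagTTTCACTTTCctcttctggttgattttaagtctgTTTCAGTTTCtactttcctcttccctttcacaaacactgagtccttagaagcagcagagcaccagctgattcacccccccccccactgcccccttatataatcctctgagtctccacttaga
Isg15 (chr4:156200819-156201068, - strand): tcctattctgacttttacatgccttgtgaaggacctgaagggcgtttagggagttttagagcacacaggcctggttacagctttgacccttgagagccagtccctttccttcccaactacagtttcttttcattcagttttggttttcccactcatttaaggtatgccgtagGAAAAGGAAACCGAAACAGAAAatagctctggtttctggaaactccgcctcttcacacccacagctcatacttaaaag
Gbp7 (chr3:142530086-142530335, + strand): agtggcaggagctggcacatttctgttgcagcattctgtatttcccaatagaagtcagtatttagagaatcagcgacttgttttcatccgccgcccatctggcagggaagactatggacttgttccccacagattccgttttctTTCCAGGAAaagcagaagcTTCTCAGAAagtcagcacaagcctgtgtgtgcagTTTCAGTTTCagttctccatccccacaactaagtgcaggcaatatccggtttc
Irgm1 (chr11:48871421-48871670, - strand): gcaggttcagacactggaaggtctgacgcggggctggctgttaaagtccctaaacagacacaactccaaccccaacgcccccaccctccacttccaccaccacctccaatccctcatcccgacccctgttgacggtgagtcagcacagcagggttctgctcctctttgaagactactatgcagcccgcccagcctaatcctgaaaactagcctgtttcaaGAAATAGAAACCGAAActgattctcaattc
Irf1 (chr11:53769764-53770013, + strand): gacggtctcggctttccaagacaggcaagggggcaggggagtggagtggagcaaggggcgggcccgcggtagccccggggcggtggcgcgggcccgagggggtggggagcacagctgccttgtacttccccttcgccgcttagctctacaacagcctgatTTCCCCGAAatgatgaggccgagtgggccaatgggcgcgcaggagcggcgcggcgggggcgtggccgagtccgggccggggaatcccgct
Cxcl10 (chr5:92348890-92349139, - strand): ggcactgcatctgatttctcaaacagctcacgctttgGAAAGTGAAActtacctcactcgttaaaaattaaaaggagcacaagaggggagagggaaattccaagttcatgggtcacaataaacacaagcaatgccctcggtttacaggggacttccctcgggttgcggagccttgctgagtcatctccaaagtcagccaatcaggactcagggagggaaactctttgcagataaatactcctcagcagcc
The Isg15 window holds 3 overlapping ISRE matches in 1 run, the first of them 78 bases before the start. Those of Ifit1 begin 104 and 85 bases before the start on the opposite strand. The Irf1 window shown has 1 GAS match and no ISRE match, and the Cxcl10 window has 1 ISRE match 213 bases before the start. Of the 11 members called higher in mdx than in control that had a window, 7 held an ISRE match, as did 11 of the 24 members that had a window and were not called.

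**Figure D1:**
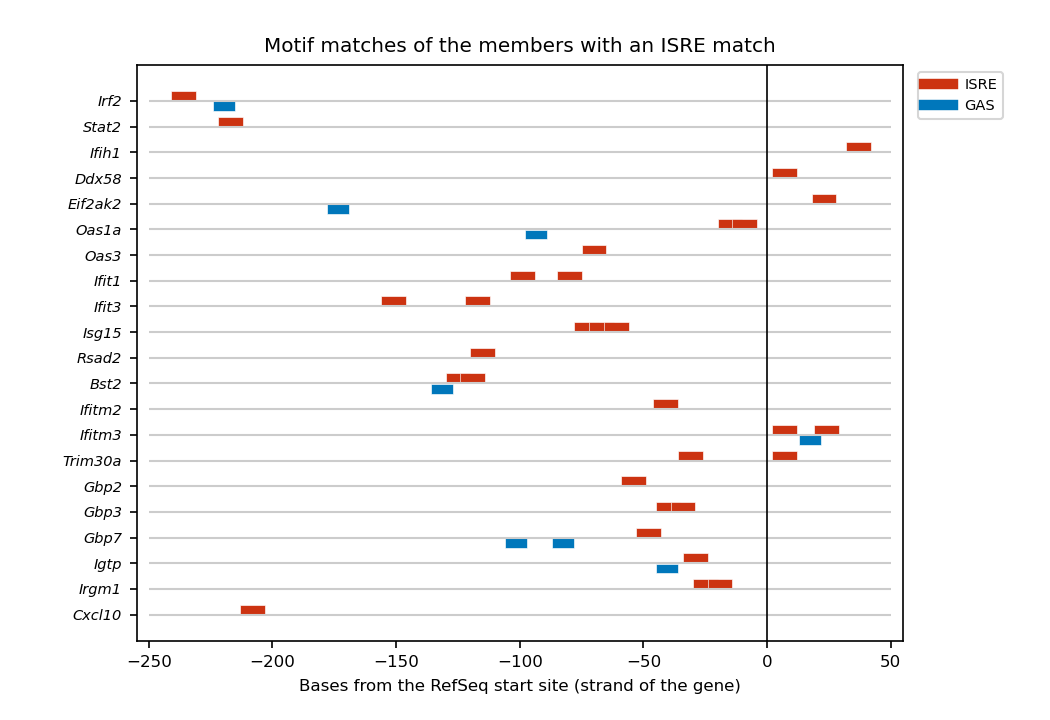
Positions of ISRE (red, GAAANNGAAA) and GAS (blue, TTCNNNGAA) matches in the windows of the 21 members with an ISRE match, in bases from the RefSeq start site (x axis), with 1 line per gene and matches of a gene with several windows placed relative to the start of their own window. ISRE matches begin between 156 bases before and 32 bases after the start, except those of Irf2, Stat2 and Cxcl10, which lie farther before it.

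Some members lie close together in the genome. When neighbours within 200 kilobases were joined, 22 of the 50 members fell into 9 clusters. Gbp7, Gbp3 and Gbp2 lie at chr3:142530338-142638008 and Ifit2, Ifit3 and Ifit1 at chr19:34550694-34650009. Such families hold near copies, and reads that matched several places were left out of the counting, so values of Ifit1, Ifit3, the Oas genes, the Gbp genes and Trim30a are uncertain to that extent.

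Together the members made up 0.0672% to 0.141% of all values in each library. Their summed values were 6740 and 6809 (control), 9026 and 7457 (mdx), and 7198 and 5966 (labelled Sirt6mKO/mdx). Per kilobase of exon, the highest mean values over the 6 libraries were those of Ifitm3 (539), Ifitm2 (438), Ifi27 (293) and Irf1 (157), although Irf1 in mdx, at 58, was below Isg15 (95.2), Samd9l (81.1) and Gbp2 (80.3). The lowest were those of Oas3 (0.307), Ifi44 (1.33), Oas2 (1.54) and Oasl1 (1.66). IFITM2 and IFITM3 are membrane proteins that block the entry of viruses. The median value of the 50 members was 64.5 and 77.5 (control), 151 and 101.5 (mdx), and 93 and 67 (labelled Sirt6mKO/mdx). The medians of the mdx libraries were above those of the other 4. Over all tested genes the median was 77 and 76 (control), 82 and 79 (mdx), and 84 and 84 (labelled Sirt6mKO/mdx). The mean was highest in mdx for 31 of 50 members, in control for 9 and in the Sirt6mKO/mdx-labelled libraries for 10. The same count was not made over all tested genes. As the members were chosen with earlier results known, it is a description only.

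**Figure D2:**
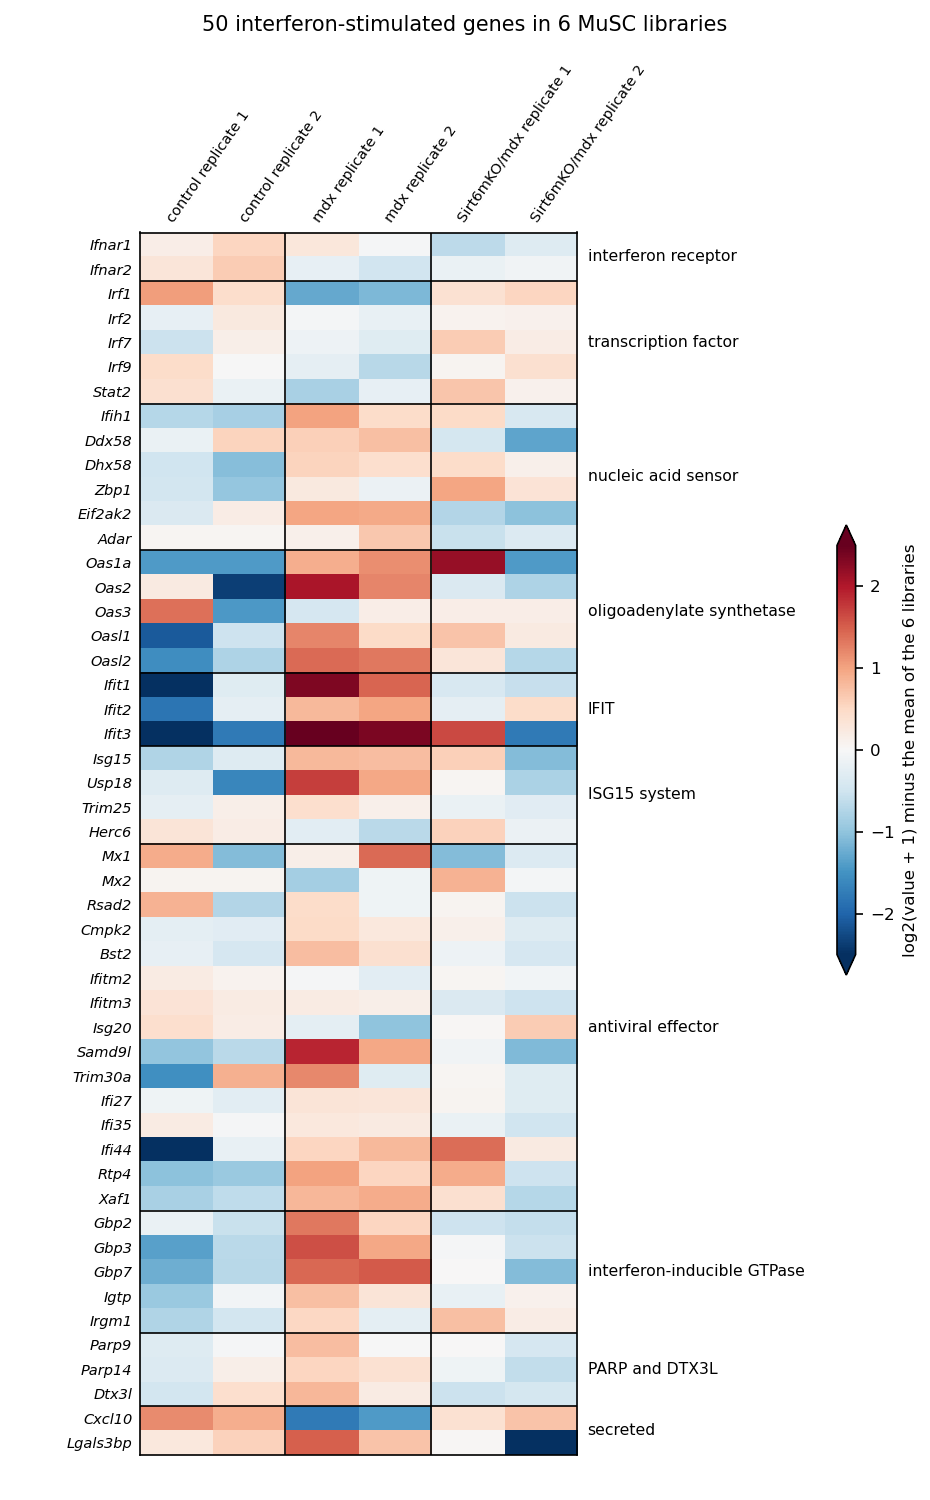
Heat map of the 50 members (rows, grouped by role) in the 6 libraries (columns), coloured by log2(value + 1) minus the mean of the gene over the 6 libraries. The mdx columns are mostly red in the IFIT, oligoadenylate synthetase and Gbp rows and blue for Irf1 and Cxcl10.

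In mdx against control, 13 members were called higher and 2 lower, where a call is an adjusted p of at most 0.05 by limma with Benjamini-Hochberg adjustment and an absolute log2 fold change of at least 1 on the log2(value + 1) scale. Of all 15915 genes tested, 6.89% were called higher and 7.34% lower. The members were selected with this contrast and the others known, so the counts of members in all 3 comparisons are a description. The median log2 fold change of the 47 tested members was 0.69, beside 0.00 for all tested genes, with 34 members above 0 and 13 below. Between the Sirt6mKO/mdx-labelled libraries and mdx, called here the second comparison, 2 members were called higher and 9 lower, beside 5.62% and 2.54% of all tested genes. Here the median of the members was -0.59 beside 0.02, with 14 above 0 and 33 below. In the Sirt6mKO/mdx-labelled libraries against control, 1 member was called higher and 0 lower, beside 5.19% and 2.68% of all tested genes, and the median was 0.09 beside 0.01. At an unadjusted p under 0.05, 8 members were above control and 5 below (limma), beside 13.1% and 11% of all tested genes. Under scaling by the sum of values 0 members were called higher and 8 lower, with a median of -0.51, where 2693 of the 15915 genes were called lower and the median of all was -0.58. The first and second of these comparisons share the mdx libraries, so a high value in mdx enters both with opposite signs. In bulk RNA, fewer cells that express a gene and less RNA per cell cannot be told apart.

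The calls of the second comparison, of the Sirt6mKO/mdx-labelled libraries against mdx, depended on each of the 4 libraries in it. Leaving out 1 of these 4 lowered the number of calls among the members and among all tested genes alike. The median log2 fold change of the members there ranged from -0.78 to -0.41 when 1 of the 6 libraries was left out. In mdx against control, fewer members and fewer of all tested genes were called higher without either mdx library. The median of the members there ranged from 0.53 to 0.94 over the 6 removals. Irf1, Oasl2, Gbp7 and Cxcl10 kept their call in mdx against control whichever of the 6 libraries was left out. Without mdx replicate 1 the other 11 called members lost theirs, and without mdx replicate 2 Eif2ak2, Ifit2, Usp18, Rtp4 and Xaf1 did. Calls were also lost without control replicate 1 (Eif2ak2, Ifit2, Rtp4 and Xaf1), without control replicate 2 (Usp18, Rtp4, Xaf1 and Gbp2) and without either library labelled Sirt6mKO/mdx, which share the fit (Eif2ak2 and Gbp2). In the second comparison the 11 called members lost their calls without mdx replicate 1 except Irf1, and without mdx replicate 2 except Irf1, Samd9l and Cxcl10. They lost them without Sirt6mKO/mdx replicate 1 except Irf1, Ddx58, Samd9l, Gbp7 and Lgals3bp, and all 11 did without Sirt6mKO/mdx replicate 2. Lgals3bp also lost its call without either control library. Scaling each library by the sum of its values, in place of the size factors, moved the median log2 fold change of all tested genes in the second comparison to -0.58, that of the members to -1.21, and the count of members called lower to 25, beside 2932 of all tested genes in place of 405.

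**Figure D3:**
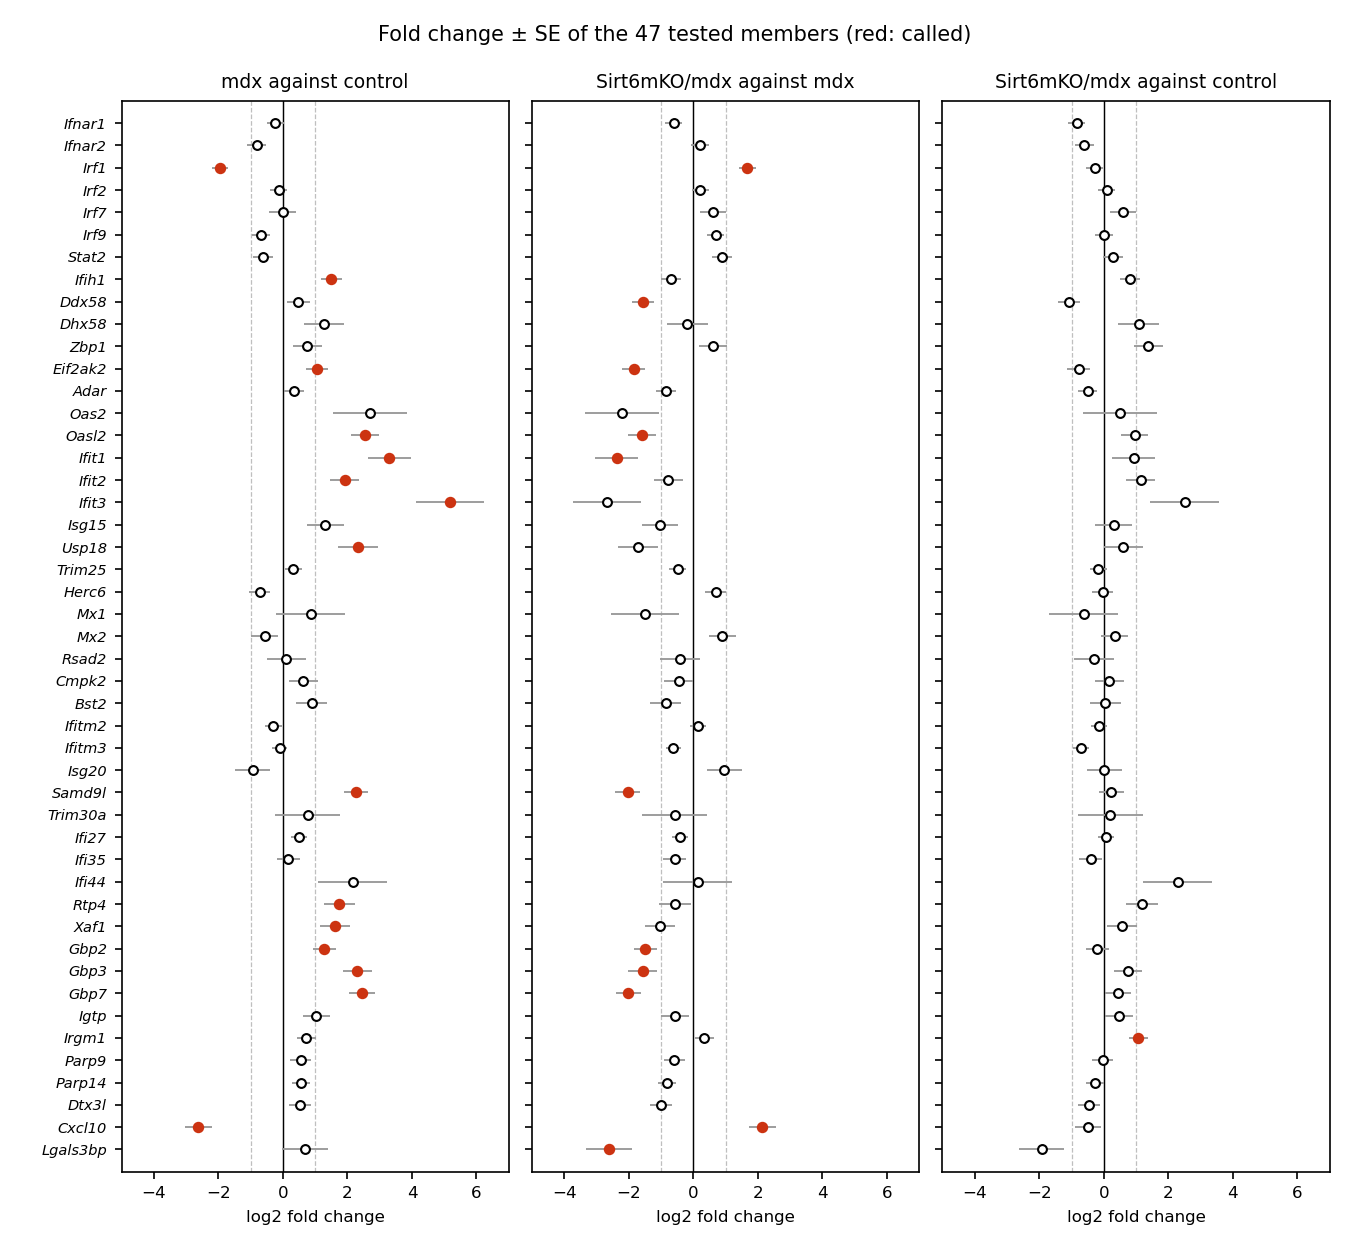
Log2 fold change on the log2(value + 1) scale (x axis, bars are the SE) of the 47 tested members in the 3 comparisons, with called members in red and dashed lines at a change of 1. Members called higher in mdx lie right of 0 in the first panel and left of 0 in the second, while Irf1 and Cxcl10 do the reverse.

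In mdx against control both receptor subunits and all 5 transcription factors had log2 fold changes below 0, unlike most members. In the second comparison the 5 factors and Ifnar2 were above 0, while Ifnar1 was below 0 as most members were. Ifnar1, the receptor subunit that binds TYK2, had values of 378 and 490 (control), 411 and 327 (mdx), and 214 and 268 (labelled Sirt6mKO/mdx). The last group was below both others, but with log2 fold changes of -0.61 ± 0.26 (SE) against mdx (adjusted p = 0.164, limma) and -0.84 ± 0.26 against control (adjusted p = 0.0616) it was not called. Ifnar2, the subunit that binds JAK1, had values of 213 and 271 (control), 151 and 124 (mdx), and 155 and 162 (labelled Sirt6mKO/mdx). Control was above the other 4 libraries, and the difference of mdx from control was not called (adjusted p = 0.068, limma).

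Irf1 was the transcription factor that changed. IRF1 is induced by interferon gamma and by inflammatory signals and binds interferon response elements. Its values were 1095 and 725 (control), 219 and 242 (mdx), and 696 and 771 (labelled Sirt6mKO/mdx). The mdx libraries lay far below the other 4, and control and the Sirt6mKO/mdx-labelled libraries overlapped. The log2 fold change was -1.95 ± 0.26 in mdx against control (adjusted p = 0.000139, limma) and 1.67 ± 0.26 in the Sirt6mKO/mdx-labelled libraries against mdx (adjusted p = 0.00105). The summed immediate early genes given above were also lowest in mdx.

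The other 4 factors were not called in any comparison. Stat2 had values of 350 and 238 (control), 151 and 232 (mdx), and 429 and 287 (labelled Sirt6mKO/mdx). Irf9, the DNA-binding partner of STAT2, was at 530 and 384, 331 and 238, and 404 and 508 in the same order. Both had their lowest group values in mdx, without overlap with control. Irf7, which amplifies type I interferon production, was at 45 and 72, 60 and 53, and 102 and 74. Irf2, which can antagonise IRF1, was at 201 and 275, 226 and 204, and 249 and 251. For Irf2 and Irf7 the control and mdx libraries overlapped.

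Among the 6 sensors of nucleic acids, 2 were called higher in mdx than in control and 2 lower in the Sirt6mKO/mdx-labelled libraries than in mdx. Ifih1, which encodes the RNA helicase sensor MDA5, had values of 136 and 124 (control), 445 and 307 (mdx), and 311 and 168 (labelled Sirt6mKO/mdx). It rose in mdx by 1.50 ± 0.32 on the log2 scale (adjusted p = 0.00538, limma), and its mdx and Sirt6mKO/mdx libraries overlapped. Eif2ak2, the kinase PKR that halts translation on sensing viral RNA, had values of 76 and 112 (control), 197 and 191 (mdx), and 59 and 48 (labelled Sirt6mKO/mdx). The 3 groups did not overlap, and the lowest values were those of the Sirt6mKO/mdx-labelled libraries. Eif2ak2 changed by 1.06 ± 0.35 in mdx against control (adjusted p = 0.0487) and by -1.85 ± 0.35 in the second comparison (adjusted p = 0.00443, limma). Its first call was kept in 1 of the 6 removals of a library.

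Ddx58, the sensor RIG-I, was called in the second comparison alone of the 3. It had values of 151 and 249 (control), 257 and 286 (mdx), and 124 and 67 (labelled Sirt6mKO/mdx). The change of -1.56 ± 0.35 against mdx was called (adjusted p = 0.0121, limma), and that of -1.08 ± 0.35 against control was not (adjusted p = 0.0662). Adar, which edits RNA and thereby keeps cellular RNA from being sensed, had values of 159 and 160 (control), 167 and 246 (mdx), and 104 and 121 (labelled Sirt6mKO/mdx). The last were below the other 4, and no comparison of Adar was called. Zbp1 and Dhx58 were not called either, and Zbp1 had its highest values, 115 and 74, in the Sirt6mKO/mdx-labelled libraries.

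Of the 5 oligoadenylate synthetase genes, whose products activate the ribonuclease RNase L or are related to those that do, Oasl2 alone had values well above the floor. Oasl2 had values of 26 and 45 (control), 210 and 197 (mdx), and 96 and 47 (labelled Sirt6mKO/mdx). Every mdx library was above every other library, and the Sirt6mKO/mdx-labelled libraries were above control. It rose by 2.54 ± 0.43 in mdx against control (adjusted p = 0.000978, limma) and changed by -1.58 ± 0.43 in the second comparison (adjusted p = 0.0329). Oas2 had values of 5 and 0 (control), 20 and 11 (mdx), and 3 and 2 (labelled Sirt6mKO/mdx), and was not called. In approximate reads Oas2 had 45 in mdx and 3 in control, a ratio per depth of 10.4 with an exact 95% interval of 3.35 to 52.5 that covers counting error only. Oas1a, Oas3 and Oasl1 stayed between 0 and 11.

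All 3 IFIT genes, which encode proteins that bind foreign RNA and block its translation, were called higher in mdx than in control. Ifit1 had values of 5 and 27 (control), 172 and 93 (mdx), and 25 and 22 (labelled Sirt6mKO/mdx). The mdx libraries stood above the other 4, and control overlapped with the Sirt6mKO/mdx-labelled libraries. Ifit1 rose by 3.30 ± 0.67 in mdx (adjusted p = 0.00367, limma) and changed by -2.38 ± 0.67 in the second comparison (adjusted p = 0.0381).

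Ifit2 had values of 30 and 93 (control), 191 and 216 (mdx), and 93 and 149 (labelled Sirt6mKO/mdx). Its rise of 1.92 ± 0.45 in mdx was called (adjusted p = 0.00926, limma), and its difference of -0.78 ± 0.45 in the second comparison was not (adjusted p = 0.298). Ifit3 had values of 0 and 2 (control), 75 and 51 (mdx), and 31 and 2 (labelled Sirt6mKO/mdx). The last 2 libraries differed widely from each other, and replicate 2 was as low as control. Ifit3 rose by 5.18 ± 1.06 in mdx (adjusted p = 0.00405, limma). From 181 approximate reads in mdx and 3 in control its ratio per depth was 42, with a 95% interval of 14.2 to 206, and the second comparison was not called (adjusted p = 0.13).

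Of the 4 genes of the ISG15 system, Usp18 was called. ISG15 is a ubiquitin-like modifier, USP18 removes it from proteins and also dampens the signal at IFNAR2. Usp18 had values of 24 and 9 (control), 102 and 60 (mdx), and 31 and 17 (labelled Sirt6mKO/mdx), with mdx above the other 4. It rose by 2.33 ± 0.61 in mdx (adjusted p = 0.0179, limma), and the change of -1.72 ± 0.61 in the second comparison was not called (adjusted p = 0.0931). Isg15 itself had values of 24 and 33 (control), 73 and 71 (mdx), and 63 and 19 (labelled Sirt6mKO/mdx). The mdx libraries were above control without overlap, yet the difference of 1.32 ± 0.56 was not called (adjusted p = 0.122), and the 2 Sirt6mKO/mdx-labelled libraries stood on either side of control. Trim25 and Herc6, ligases of the ubiquitin and ISG15 systems, were not called.

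Of the 15 antiviral effectors, 3 were called higher in mdx than in control. Samd9l, which restricts poxviruses and cell growth, had values of 77 and 96 (control), 578 and 302 (mdx), and 144 and 71 (labelled Sirt6mKO/mdx). It rose by 2.27 ± 0.38 in mdx (adjusted p = 0.000991, limma) and changed by -2.04 ± 0.38 in the second comparison (adjusted p = 0.0044). Control and the Sirt6mKO/mdx-labelled libraries overlapped for Samd9l.

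Rtp4 and Xaf1 were called in mdx against control only among the 3 comparisons. Rtp4 had values of 27 and 29 (control), 113 and 82 (mdx), and 108 and 39 (labelled Sirt6mKO/mdx). Its rise in mdx was 1.75 ± 0.49 (adjusted p = 0.025, limma). Xaf1, which opposes the inhibitor of apoptosis XIAP, was at 30 and 34, 96 and 103, and 71 and 32 in the same order. It rose in mdx by 1.61 ± 0.47 (adjusted p = 0.0281). In both genes replicate 1 labelled Sirt6mKO/mdx lay nearer to mdx and replicate 2 nearer to control.

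The other 12 effectors were not called in any comparison. Mx1 and Mx2, dynamin-like GTPases that block influenza and related viruses, ranged from 2 to 16 and from 43 to 145. Rsad2, which encodes viperin, ranged from 19 to 60, and its neighbour Cmpk2 from 37 to 65. Ifitm2 ranged from 239 to 328 and Ifitm3 from 248 to 450, and the change of Ifitm3 in the second comparison, -0.62 ± 0.24, was not called (adjusted p = 0.127, limma). Ifitm3, Ifitm2 and Ifi27, the members with the highest values per kilobase, were thus not called in any comparison.

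**Figure D4:**
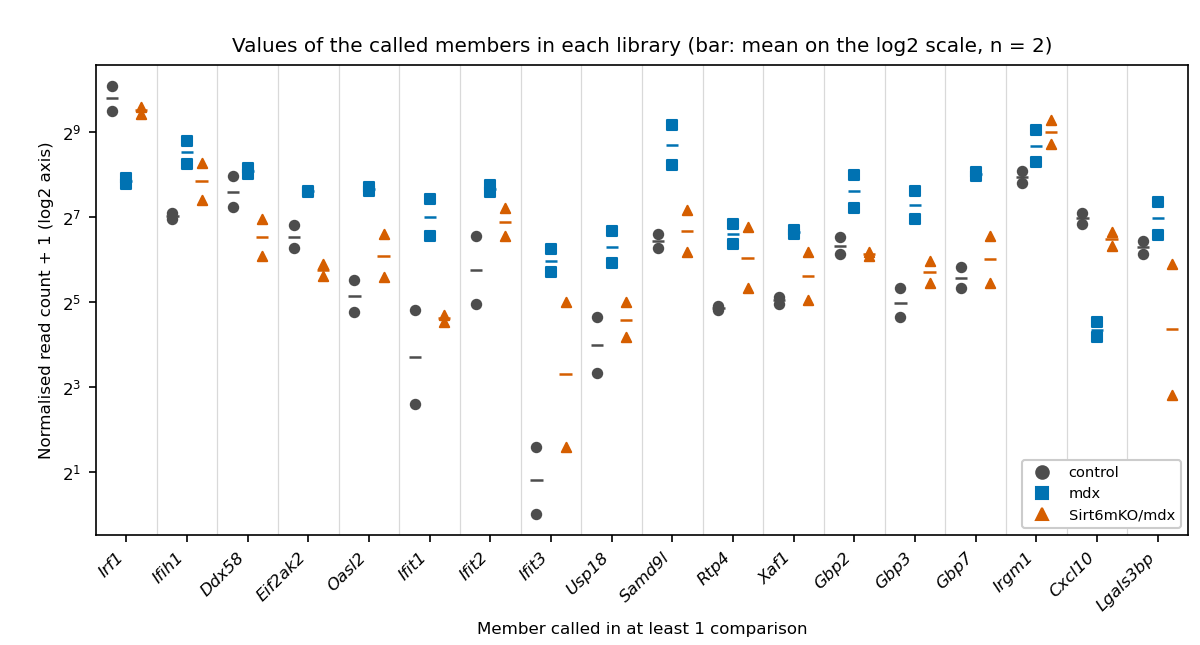
Normalised read count plus 1 (y axis, log2 scale) of each member called in at least 1 comparison, with 1 point per library (grey circles control, blue squares mdx, orange triangles labelled Sirt6mKO/mdx) and a bar at the mean on the log2 scale. Both mdx points lie below the other 4 for Irf1 and Cxcl10. They overlap with points of another group for Ifih1, Rtp4 and Irgm1, and lie above the other 4 for the remaining genes shown.

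Gbp2, Gbp3 and Gbp7, the 3 guanylate-binding protein genes among the members, changed in both comparisons that involve mdx. These GTPases coat and disrupt the membranes of pathogens and their vacuoles and respond strongly to interferon gamma. Gbp7 had values of 39 and 56 (control), 250 and 268 (mdx), and 93 and 43 (labelled Sirt6mKO/mdx). Gbp3 was at 24 and 39, 195 and 124, and 62 and 43 in the same order. Gbp2 was at 91 and 69, 255 and 149, and 71 and 67. In all 3 genes mdx did not overlap with either other group. Of the other Gbp genes in the table, Gbp5 and Gbp9 were called higher in mdx than in control and not called in the second comparison, Gbp6 was called in neither, and Gbp4 was too low for a test.

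Gbp7 rose in mdx by 2.44 ± 0.40 on the log2 scale (adjusted p = 0.000825, limma) and changed in the second comparison by -2.01 ± 0.40 (adjusted p = 0.00656). For Gbp3 the changes were 2.31 ± 0.44 (adjusted p = 0.00234, limma) and -1.57 ± 0.44 (adjusted p = 0.0365). For Gbp2 they were 1.29 ± 0.36 (adjusted p = 0.0242, limma) and -1.49 ± 0.36 (adjusted p = 0.0199). The calls in mdx against control were kept in 6, 5 and 2 of the 6 removals of a library for Gbp7, Gbp3 and Gbp2, and those in the second comparison in 3, 2 and 2.

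Irgm1, an immunity-related GTPase that governs autophagy of intracellular bacteria, had another order of groups. It had values of 222 and 272 (control), 532 and 313 (mdx), and 630 and 423 (labelled Sirt6mKO/mdx). Both other groups were above control, and they overlapped with each other. The difference of 1.07 ± 0.30 between the Sirt6mKO/mdx-labelled libraries and control was called (adjusted p = 0.0376, limma), a call kept only without mdx replicate 2 among the 6 removals of a library, while that of 0.73 ± 0.30 between mdx and control was not (adjusted p = 0.112). Igtp was at 32 and 59, 105 and 78, and 54 and 67, and was not called.

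Parp9, Parp14 and Dtx3l, an ADP-ribosylation and ubiquitylation group that lies together at chr16:35832874-35972605, had like values below the threshold. Their log2 fold changes were between 0.54 and 0.55 in mdx against control and between -1.0 and -0.59 in the second comparison. None of the 3 was called in any comparison.

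The 2 secreted members differed from each other. Cxcl10, a chemokine that draws CXCR3-bearing T cells, had values of 137 and 113 (control), 17 and 22 (mdx), and 79 and 99 (labelled Sirt6mKO/mdx). The 3 groups did not overlap, with mdx lowest. Cxcl10 fell by 2.62 ± 0.41 on the log2 scale in mdx (adjusted p = 0.000531, limma) and was higher by 2.14 ± 0.41 in the Sirt6mKO/mdx-labelled libraries than in mdx (adjusted p = 0.00494). Irf1 and the summed immediate early genes were also lowest in mdx.

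Lgals3bp, a secreted glycoprotein that binds galectins, had values of 69 and 86 (control), 163 and 95 (mdx), and 59 and 6 (labelled Sirt6mKO/mdx). Its change of -2.61 ± 0.71 in the second comparison was called (adjusted p = 0.0335, limma) and replicate 2 alone was at 6. The call was kept in 1 of the 6 removals of a library, that of Sirt6mKO/mdx replicate 1.

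In the Sirt6mKO/mdx-labelled libraries most members were higher in replicate 1. Replicate 1 was above replicate 2 in 37 of 50 members, with a median log2 difference of 0.43. Over all tested genes replicate 1 was above replicate 2 in 49.3%, with a median of 0.00. A difference of at least 2-fold was seen in 10 members (20%), near the 18.2% of all tested genes. In mdx replicate 1 was above replicate 2 also in 37 of 50 members, with a median of 0.25, beside 50.7% of all tested genes. In control it was above in 21 of 50 members. Approximate depth was higher in replicate 1 than in replicate 2 of both groups, and markers of other cells differed between these libraries too. The median of the fibro-adipogenic markers was 256.5 in replicate 1 and 45.5 in replicate 2 of mdx, and 229 and 69.5 in the Sirt6mKO/mdx-labelled libraries, although their sum in the latter was lower in replicate 1 (21516) than in replicate 2 (28881). The summed myofibre markers were 5290 and 1535 in mdx, and 11413 and 4971 in the Sirt6mKO/mdx-labelled libraries. The part of depth and of these markers in the replicate differences was not tested.

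Interferon genes themselves were at the floor. Of 21 ligand genes listed, 4 were in the table and none had a mean of 5. Ifnab was at 1 and 5 in the mdx libraries and at 0 in the other 4. Ifng was at 2 and 2 in the Sirt6mKO/mdx-labelled libraries and at 0 in the other 4. Ifnk was at 0 in all 6 libraries, and Ifnz ranged from 0 to 5. The other 17 ligand genes were not analysed here, and cells outside the sorted gate were not measured.

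Of 22 tested genes of interferon signalling outside the members, 1 was called higher and 3 lower in mdx than in control. Ifngr2, a subunit of the interferon gamma receptor, had values of 39 and 87 (control), 186 and 151 (mdx), and 96 and 123 (labelled Sirt6mKO/mdx). It rose in mdx by 1.51 ± 0.39 (adjusted p = 0.0173, limma). Irf8, Socs3 and Myd88 were called lower in mdx and higher in the Sirt6mKO/mdx-labelled libraries than in mdx. Irf8, a factor of the interferon gamma response, was at 370 and 302, 69 and 55, and 206 and 177. Socs3, a feedback inhibitor of JAK signalling that is also 1 of the 24 immediate early genes, was at 2414 and 1821, 432 and 636, and 2693 and 4302. Myd88, an adaptor of Toll-like receptors, was at 381 and 366, 79 and 86, and 285 and 330.

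Among the receptor kinases, Jak1 was at 2074 and 2035 in control against 977 and 1079 in mdx and 961 and 1117 in the Sirt6mKO/mdx-labelled libraries. The Jak1 difference of mdx from control had an adjusted p of 0.0117 (limma) but lay just under the minimum change of 1 on the log2 scale. Tyk2 was at 101 and 84, 69 and 126, and 158 and 136, and was not called.

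A further 42 interferon-induced genes were listed, of which 31 were tested. In mdx against control 9 of them were called higher, namely Ifi204, Ifi47, Iigp1, Gbp5, Gbp9, Sp100, Slfn8, Ly6e and Ddx60, and 2 lower, Helz2 and Ifi30. In the Sirt6mKO/mdx-labelled libraries against mdx, Iigp1, Irgm2 and Ly6e were called lower and Helz2 higher. The median log2 fold changes of these 31 genes were 1.04 and -0.73, beside 0.00 and 0.02 for all tested genes. Against control, Ifi204 and Slfn8 were called higher in the Sirt6mKO/mdx-labelled libraries, and the median was 0.11.

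Examples of this wider list had orders of groups also seen among the members. Ly6e had values of 210 and 360 (control), 895 and 726 (mdx), and 215 and 272 (labelled Sirt6mKO/mdx). Iigp1, an immunity-related GTPase, was at 27 and 76, 291 and 270, and 93 and 65. Both were higher in mdx than in the other 4 libraries. Ifi204, a sensor of DNA, had values of 2 and 0 (control), 82 and 38 (mdx), and 26 and 15 (labelled Sirt6mKO/mdx), and stayed above control in both other groups. Helz2, a helicase co-activator, was at 1122 and 931, 251 and 398, and 973 and 683, lowest in mdx as Irf1 and Cxcl10 were.

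**Figure D5:**
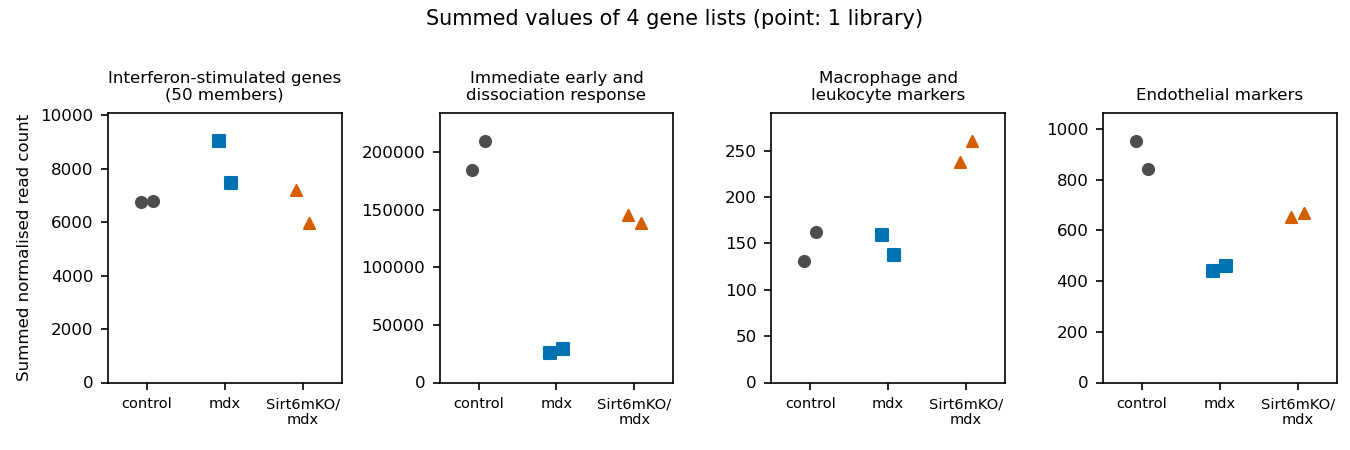
Summed normalised read counts (y axis, from 0) of the 50 members and of 3 other gene lists in each library, with 1 point per library. The immediate early list runs from 25512 in mdx to 209366 in control, while the macrophage and leukocyte markers stay between 131 and 260.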

How the data were processed

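Total RNA of sorted MuSCs (negative for Sca1, CD45 and CD31 and positive for Integrin-a7 and CD34, for GFP of a Pax7/zsGreen line or for YFP of a Cre reporter, without a statement of which served here) was depleted of ribosomal RNA and sequenced on an Ion Torrent instrument. Alignment by the authors was with STAR (2.4.2a in the submitters' processing notes, another release in the methods), counting per gene with featureCounts 1.4.5-p1 without reads on several genes or places, and normalisation with DESeq2. The use of strand was not stated, so values of overlapping genes are uncertain. The deposited values are whole numbers that behave as counts divided by 1 size factor per library and rounded, and they were treated as a score and not as raw counts. Approximate reads are value times the recovered size factor, 0.537 to 1.527.

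The members, gene lists, roles and tests were chosen with earlier results of these data known. A linear model of limma 3.58.1 (R 4.3.3) used log2(value + 1) of 15915 genes with a mean of at least 5, a trended prior variance and all 6 libraries in 1 fit without a block. Adjusted p is two-sided, by Benjamini-Hochberg over these genes. A call needed an adjusted p of at most 0.05 and an absolute log2 fold change of at least 1. The test was tested on simulated data. Values in every library are given for each called member and for 14 fixed members, which are Ifnar1, Ifnar2, Irf1, Irf2, Irf7, Irf9, Stat2, Isg15, Ifit1, Ifit2, Ifit3, Usp18, Eif2ak2 and Adar, and the other members by ranges and counts. Dhx58, Zbp1, Igtp, Oas2, Ifitm2, Ifitm3, Sdc4, Heyl, Notch3, Col1a1, Lyz2, Cd68, C1qa, C1qc, Laptm5, Gbp4, Gbp6 and the dendritic markers were named after their values were seen. Gene positions are those of the table (GRCm38). Promoter sequences are from RefSeq, and Dhx58, Zbp1, Oas2, Usp18, Mx1, Mx2, Ifi27, Rtp4, Parp9 and Parp14 had no window there. Intervals cover counting error only.

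Other marker lists were the endothelial (2 of 8 tested called lower in mdx against control) and the smooth muscle and pericyte markers (1 of 8 higher, 1 lower), with 0 called in the other 2 comparisons. A gene of the signalling list is not reported here.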

Additional observations from a re-analysis of the deposited data

How the results depend on the processing

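Direction held for every called fold change of a member under every alternative run (472 values), and 128 of these values no longer met the criteria for a call. In mdx against control the count of members called higher, 13, became 4 with no minimum mean and 0 with 1 prior variance for all genes, and ranged from 2 to 11 when each library was left out, where a group left with 1 library is assumed to vary like the others. The 2 called lower stayed at 2 in those removals, and the median log2 fold change ranged from 0.53 to 0.94.

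In the comparison of the Sirt6mKO/mdx-labelled libraries with mdx, the 9 called lower became 0 with no minimum mean and 0 with 1 prior variance. They became 25 with scaling by the sum of values. Of all tested genes 405 were called lower in the fit above, and 14, 0 and 2932 under these settings. The 2 called higher became 1 with no minimum mean and 0 with 1 prior variance. Of all tested genes 895 were called higher in the fit above, and 154 and 0 under these settings. The median of the members ranged from -0.78 to -0.41 when each library was left out and was -1.21 with scaling by the sum.

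Against control, the 1 called higher became 0 with a pseudocount of 0.1, no minimum mean or scaling by the sum. It also became 0 with 1 prior variance and with only the 4 libraries compared. Of all tested genes 826 were called higher in the fit above, and 735, 169, 455, 65 and 541 under these settings, in this order. The 0 called lower became 1 with a minimum mean of 50, 1 with a robust prior variance and 8 with scaling by the sum. Of all tested genes 427 were called lower in the fit above, and 404, 452 and 2693 under these settings. The median of the members was -0.51 with scaling by the sum, which moved that of all tested genes to -0.58. Across the removals of 1 library the median of the members ranged from -0.11 to 0.31. The causes were not tested.

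The labels do not say whether libraries with the same replicate number belong together. The correlation of deviations from the group means across 15915 genes was -0.128, 0.009 and 0.119 in the 3 comparisons. Being over all genes, it cannot decide whether the members share an effect of the number. Replicate 1 was above replicate 2 in 37 of 50 members both in mdx and in the Sirt6mKO/mdx-labelled libraries, and the cause was not tested. With the replicate number as a block, 12 members were higher and 2 lower in mdx against control, 2 higher and 9 lower in the second comparison, and 1 higher and 1 lower against control. A crossed pairing in mdx against control, chosen after seeing the data, gave 13 higher and 2 lower. GC content was that of each gene's longest transcript in the mouse GENCODE release M21, and centring by it moved no count of members by more than 1. With 2 libraries a group, changes of the low members Oas1a, Oas2, Oas3 and Oasl1 were not resolved by the test. Of these Oas2 was not called, and the others were too low to be tested.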
